A study of Mus musculus with 4 samples.

Results

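This account describes open chromatin that was shared by every library of the study, sat at the ends of protein-coding genes and had an ordinary width. The assay was ATAC-seq, which reads out open DNA as the sites where a transposase can insert sequencing adapters. It was run on endothelial cells sorted from the retina of C57BL/6 mice labelled P16, with 2000 sorted cells per library. The 2 control libraries came from mice with the genotype given as control, and the 2 others from mice with the genotype given as Zeb1 knockdown, whose titles read Zeb1-CKO. About the allele, the promoter that drives a recombinase and the number of animals behind each library, the labels say nothing. Peaks of the 4 libraries were merged where they overlapped or touched, which gave 25263 regions on the 19 autosomes and X. A region was chosen by 3 conditions: a peak in all 4 libraries, a merged width under 1200 bp, and a position within 1 kb of either end of a protein-coding gene. The rule selected 3395 regions, 13.4% of all regions, 66.3% of the 5120 held by all 4 libraries and 88.9% of the 3821 shared regions near gene ends. They lay at the ends of 4081 genes, 18.9% of the 21627 protein-coding genes in the table. Because presence in all 4 libraries and the width of the merged region chose them, both are descriptions here and were not tested.

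At the start of an active gene, nucleosomes are displaced over a short stretch of DNA in which general transcription factors and RNA polymerase II assemble, and the transposase reaches that stretch easily. Many starts of genes that are active in nearly every cell type lie in CpG islands, stretches rich in C and G in which the CG dinucleotide is kept. Such promoters often hold GGGCGG boxes, which Sp and KLF zinc-finger factors bind, CCAAT boxes, bound by the trimeric factor NF-Y, and sites for ETS factors. Endothelial cells line blood vessels, and those of the retina form a tight barrier. Zeb1 is a zinc-finger repressor best known for silencing epithelial genes through E2-boxes, whose letters are CACCTG.

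The sequences of a few members show both kinds of promoter found among them. The stretches are the 150 bases before the RefSeq start, on the strand of the gene, 5′ to 3′, from the RefSeq promoter table on GRCm38.p6, the assembly called mm10. The first 4 belong to the members best placed by fold enrichment in all libraries, among those with 1 gene and 1 listed start, that held a CCAAT box in this stretch, and capitals mark the box in either orientation (CCAAT or ATTGG). Arrdc4 encodes an arrestin-domain protein (chr7:68749239-68749388, minus strand), Stt3a the catalytic subunit of an oligosaccharyltransferase (chr9:36767623-36767772, minus strand), Numb an inhibitor of Notch signalling (chr12:83921935-83922084, minus strand) and Sel1l an adaptor of endoplasmic reticulum protein degradation (chr12:91849158-91849307, minus strand).
Arrdc4: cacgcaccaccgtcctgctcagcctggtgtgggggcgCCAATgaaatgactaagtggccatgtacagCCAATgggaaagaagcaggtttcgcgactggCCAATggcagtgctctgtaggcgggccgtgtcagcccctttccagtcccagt
Stt3a: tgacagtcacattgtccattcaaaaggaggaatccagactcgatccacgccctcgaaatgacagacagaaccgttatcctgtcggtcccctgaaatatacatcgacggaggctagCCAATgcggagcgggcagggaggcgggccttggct
Numb: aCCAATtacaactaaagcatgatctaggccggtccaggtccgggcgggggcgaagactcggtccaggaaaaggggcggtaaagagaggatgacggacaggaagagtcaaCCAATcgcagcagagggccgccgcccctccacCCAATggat
Sel1l: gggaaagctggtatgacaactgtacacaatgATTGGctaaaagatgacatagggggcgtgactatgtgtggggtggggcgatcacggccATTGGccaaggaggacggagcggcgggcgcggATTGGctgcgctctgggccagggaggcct

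The next 8 show the range in CG content, and here capitals mark every CG dinucleotide. Tie1 (chr4:118489850-118489999, minus strand), an endothelial receptor tyrosine kinase, Clec14a (chr12:58269259-58269408, minus strand), an endothelial C-type lectin, Cd34 (chr1:194938671-194938820, plus strand), a sialomucin of vessels and blood progenitors, and Elk3 (chr10:93311160-93311309, minus strand), an ETS-family transcription factor, are the members on the endothelial identity list whose region held 1 gene and 1 RefSeq start. Wdr1 (chr5:38561700-38561849, minus strand), an actin-disassembly factor, Tra2b (chr16:22266006-22266155, minus strand), a splicing regulator, the protein kinase gene Tesk1 (chr4:43442127-43442276, plus strand) and the nuclear receptor gene Nr2c2 (chr6:92092283-92092432, plus strand) are those of this kind among the 6 members whose peaks gained most width in the knockdown libraries.
Tie1: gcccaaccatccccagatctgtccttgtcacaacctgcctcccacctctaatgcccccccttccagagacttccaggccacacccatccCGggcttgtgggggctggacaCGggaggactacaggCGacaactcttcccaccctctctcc
Clec14a: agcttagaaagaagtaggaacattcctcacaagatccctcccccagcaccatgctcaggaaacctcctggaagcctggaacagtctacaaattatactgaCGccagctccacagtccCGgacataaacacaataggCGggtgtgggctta
Cd34: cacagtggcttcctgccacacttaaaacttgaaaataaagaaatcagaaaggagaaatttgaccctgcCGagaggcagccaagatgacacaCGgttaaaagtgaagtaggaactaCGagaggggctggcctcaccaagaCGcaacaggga
Elk3: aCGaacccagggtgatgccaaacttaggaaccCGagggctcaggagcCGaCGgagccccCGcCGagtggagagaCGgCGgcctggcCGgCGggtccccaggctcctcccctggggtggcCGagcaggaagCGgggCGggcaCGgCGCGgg
Wdr1: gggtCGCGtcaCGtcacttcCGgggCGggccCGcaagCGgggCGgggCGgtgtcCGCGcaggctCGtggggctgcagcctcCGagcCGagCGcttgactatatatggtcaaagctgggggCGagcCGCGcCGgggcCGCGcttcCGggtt
Tra2b: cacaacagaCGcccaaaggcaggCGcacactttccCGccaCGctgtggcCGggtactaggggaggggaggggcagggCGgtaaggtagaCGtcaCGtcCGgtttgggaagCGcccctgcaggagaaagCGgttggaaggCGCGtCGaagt
Tesk1: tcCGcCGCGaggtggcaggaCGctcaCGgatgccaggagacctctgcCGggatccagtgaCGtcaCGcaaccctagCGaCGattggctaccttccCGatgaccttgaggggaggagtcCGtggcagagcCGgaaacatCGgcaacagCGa
Nr2c2: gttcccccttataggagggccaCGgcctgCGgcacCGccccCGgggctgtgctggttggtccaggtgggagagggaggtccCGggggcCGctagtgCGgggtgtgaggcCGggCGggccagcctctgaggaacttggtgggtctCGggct

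These 150 bases held 3 CG dinucleotides for Tie1, 3 for Clec14a, 4 for Cd34 and 16 for Elk3. They held 22 for Wdr1, 14 for Tra2b, 15 for Tesk1 and 10 for Nr2c2. The CpG ratio, the observed number of CG dinucleotides over that expected from the C and G content, was 0.289, 0.266, 0.374 and 0.816 in the 300-base windows of Tie1, Clec14a, Cd34 and Elk3. It was 1.05, 0.779, 0.917 and 0.599 in those of Wdr1, Tra2b, Tesk1 and Nr2c2, and 0.466 at Tomm6, whose region is shared with other genes. Tie1, Clec14a and Cd34 are thus CG-poor examples within a set that was mostly CG-rich, and Elk3 is not. In the windows of the CCAAT examples the ratio was 0.422 for Arrdc4, 0.924 for Stt3a, 0.559 for Numb and 0.751 for Sel1l. A low ratio was therefore not confined to the endothelial genes shown.

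The RefSeq table gives a 300-base window for each listed start, 250 bases before to 50 after, with 21044 windows for 17273 of the genes. Members overlapped 3527 of them. The median CpG ratio of the overlapped windows was 0.840 (quartiles 0.714 and 0.948), and 89.2% had a ratio of at least 0.6. Over all windows the median was 0.574, and over windows of genes without any gene-end peak it was 0.278. GC content had medians of 63.7% in the overlapped windows, 56.7% over all and 50.7% at genes with no peak. The CpG ratio was much the same at shared gene-end regions of 1200 bp or more (median ratio 0.844) and at gene-end regions that were missing only in control 1 (0.824). Counted instead over all 4225 windows of genes with a member, overlapped or not, the median was 0.805, and CCAAT and CACCTG were in 48.3% and 13.7%. A CG-rich promoter was therefore a trait of gene-end regions in these libraries and not of the members alone. Windows and genes share promoters and neighbours, so these shares carry no p.

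The share of windows with a given short motif differed between the same sets. Motifs were searched as exact letters on both strands, and none of the letter strings given in this paragraph and the next contains another. GGGCGG, the Sp and KLF box, was in 77.2% of the windows overlapped by a member, 72.4% of those overlapped by a region missing only in control 1, 46.7% of all windows and 27.7% of the windows of genes with no gene-end peak. CCAAT was in 51.3%, 35.8%, 38.5% and 38.0% of the same sets, and in 41.2% of the windows overlapped by the wide shared regions. Members thus had the highest share of CCAAT boxes of the sets compared. The ETS box CCGGAAG was in 22.7% of the member windows, close to the 24.9% at regions missing only in control 1 and above the 13.9% at wide shared regions and the 11.7% of all windows.

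The E2-box CACCTG, the letters Zeb1 binds, went the other way. It was in 12.4% of the windows overlapped by a member, 9.63% of those of wide shared regions, 19.2% at regions missing only in control 1, 19.9% of all windows and 22.0% at genes with no peak. The TATA box TATAAA was in 4.48% of member windows and 12.7% of all. Among windows with a CpG ratio of at least 0.6 only, CACCTG was in 12.1% of those overlapped by a member and 19.7% of those of genes with no peak, and CCAAT in 50.7% and 30.7%. A match is only a run of letters, and whether any factor bound there was not measured.

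Position within the promoter also differed between motifs. In member windows, CCAAT boxes had a median position 84.5 bases before the start (3404 matches on either strand), GGGCGG boxes 70 before (6716 matches) and ETS boxes 50.5 before (961 matches). The YY1 element AAGATGGCG had its median 14.5 bases after the start (146 matches). The bases shown for Stt3a carry a single CCAAT box close to the start, and those for Arrdc4, Numb and Sel1l carry 3 each.

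**Figure D1:**
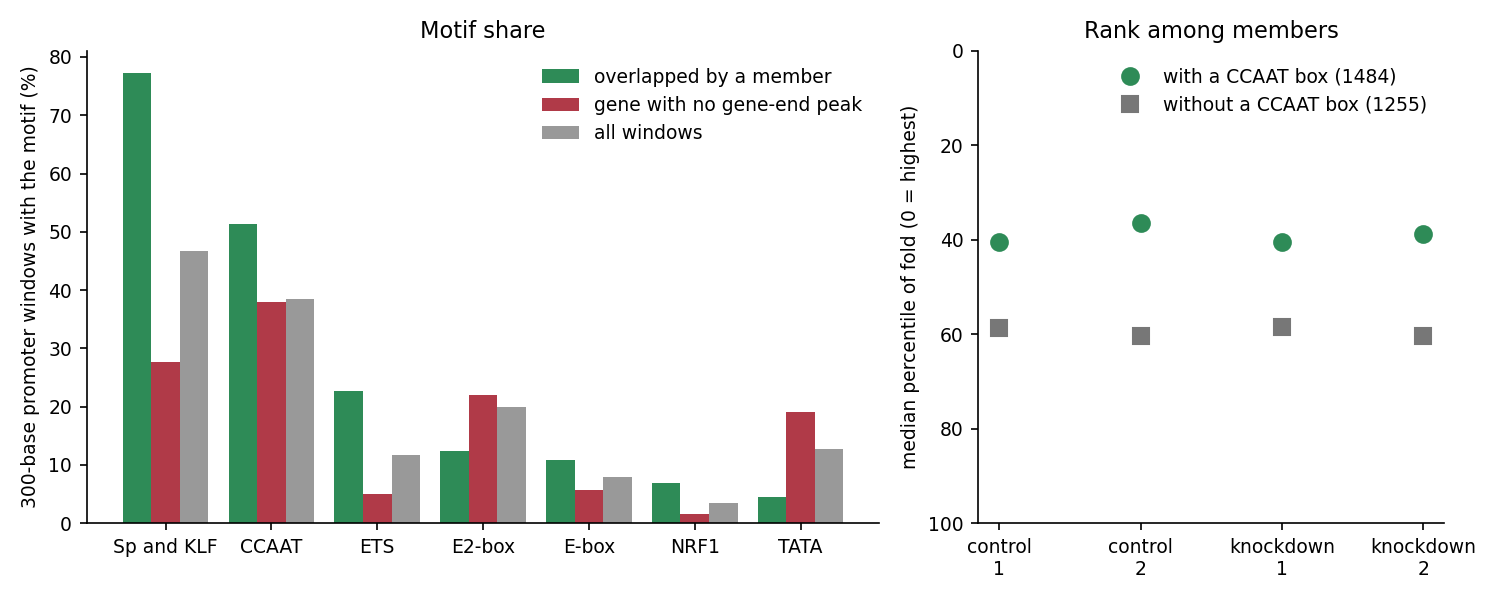
Left, percent of 300-base RefSeq promoter windows that hold each motif, for windows overlapped by a member, windows of genes with no gene-end peak in any library, and all windows. Right, median percentile of the authors' fold enrichment among the members in each library (0 is the highest fold, the axis is inverted), for members with and without a CCAAT box in an overlapped window, where the members with the box lie between 36.4 and 40.5 and those without between 58.5 and 60.5.

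Members with a CCAAT box ranked higher by fold enrichment in every library. Fold enrichment is the authors' ratio of a peak over the background of its own library, so it served only to rank the 3395 members against each other within each library, from percentile 0 for the highest fold to 100 for the lowest. Over the 1484 members with CCAAT in an overlapped window, the median percentile was 40.5 and 36.4 in control 1 and control 2, and 40.5 and 38.8 in knockdown 1 and knockdown 2. Over the 1255 with a window but without the box it was 58.7, 60.5, 58.5 and 60.4. The offset had the same direction and a like size in all 4 libraries, control or knockdown. For the Sp and KLF box the offset had the same direction and was smaller, with medians of 48, 48.2, 47.2 and 47.5 for 2212 members with it and 53.1, 51.6, 56.5 and 54.7 for 527 without. For the E2-box the medians of 382 members with it (50.8, 45.9, 48.9 and 47.9) and 2357 without (49.0, 48.9, 48.9 and 48.9) were close. Offsets were found in either direction for other motifs. The 35 members with the ZNF143 core CTACAATTC had medians of 28.9, 23.6, 33.0 and 38.1, against 49.5, 48.9, 49.2 and 49.0 without it. The 204 with the NRF1 core GCATGCGC had 54.0, 63.2, 54.2 and 59.1, against 48.7, 47.6, 48.3 and 47.9. Fold and membership come from the same peaks, and these medians carry no test.

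The peak lists differed in length, which bears on every comparison of width below. On the autosomes and X, control 1 listed 7586 peaks, control 2 13669, knockdown 1 13667 and knockdown 2 19873. Read depth is unknown. Members made up 44.8% of the list of control 1, 24.8% of those of control 2 and of knockdown 1, and 17.1% of that of knockdown 2. They were among the stronger peaks of each list, with 38.9%, 58.4%, 56.7% and 68.9% of them in the top 25% by fold. The rule itself favours strong peaks in the longer lists, since a member had to be in the shortest list too. Shared regions away from gene ends had 25.3%, 38.9%, 39.8% and 52.5% there, and wide shared gene-end regions 19.7%, 25.1%, 21.6% and 31.5%. Markers of the labelled cell type were partly present at gene ends: 6, 14, 13 and 17 of 30 endothelial identity genes had a gene-end peak in control 1, control 2, knockdown 1 and knockdown 2. Over all 21627 protein-coding genes, 4824, 8391, 8583 and 9821 had one, so the endothelial shares were not far from this background. Cdh5, the cadherin of endothelial junctions, had one in all 4 libraries, while Pecam1, an adhesion molecule that defines the type, and the transcription factor Erg had none. Photoreceptor genes had one for 2, 12, 3 and 10 of 28, so these counts were higher in both libraries numbered 2, and the transducin gene Gnat1 was held in those alone. Leukocyte genes had one for 1, 0, 1 and 2 of 18. Epithelial genes had one for 2, 6, 20 and 23 of 30, so these counts were higher in both knockdown libraries.

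The members had 1 peak in every library and a merged width of 232 to 1199 bp, with quartiles of 543, 668 and 834.5 bp. Of them, 2676 had 1 gene at an end, 703 had 2 and 16 had 3, and 49 genes had 2 members. A gene end fell inside 3089 members (91.0%). Just inside the width limit were the members at Tuba1c, Ubr2 and Dynll1, all 1199 bp wide, and just outside were shared regions at Cdc5l (1200 bp), Yrdc (1201 bp) and Scamp1 (1202 bp). Just inside the distance limit were members at Acoxl (993 bp), Nudt9 (985 bp) and Bend5 (984 bp), and just outside were regions nearest to Aktip (1001 bp), Sin3a (1001 bp) and 9430078G10Rik (1009 bp).

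Nearly all members whose gene has a known strand sat at the start of a gene rather than at its far end. Strand was known, from the promoter table, for a gene of 2883 members, and 2831 of these (98.2%) were at a start, while 33 were at a far end only. In all, 2704 members (79.6%) covered a RefSeq start, compared with 78.9% of the 426 wide shared gene-end regions and 75% of the 2420 gene-end regions missing only in control 1. Genes with a member were longer than the others, with medians of 23.2 and 15.9 kb.

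Some members covered the starts of 2 genes on opposite strands. Of the 2704 over a start, 363 (13.4%) covered starts on both strands, compared with 14.6% of the wide shared regions over a start and 9.59% of those missing only in control 1. The pair was divergent, with the transcripts running apart, at 339, and overlapping at 24. The median distance between the starts was 165 bp, and 95 pairs lay within 100 bp. The closest were Rhoa, a small GTPase of the actin cytoskeleton, and Tcta, 1 bp apart at chr9:108305869-108306939. Next came Pmm2, a phosphomannomutase, with Tmem186 and Dram2 with Cept1 (4 bp, overlapping), AU040320 with Ncdn (5 bp), and Ilk, the integrin-linked kinase, with Rrp8 (6 bp). At Rhoa and Tcta the peak was 865 and 942 bp wide in the controls against 1043 and 1071 bp in the knockdown libraries, so the groups did not overlap. At Cept1 and Dram2 it was 966 and 992 bp against 567 and 994 bp, and the groups overlapped.

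By the worst of its 4 percentiles, the member near Wls was placed first and that near Lars2 second, and both lay at far ends of genes. Wls had the highest fold of the members in each library except knockdown 1, where its percentile was 0.0442, and the worst percentile of Lars2 was 0.191, in control 2. At Wls, the carrier of secreted Wnt proteins, the member lay 640 bp from the far end (chr3:159939306-159939688) and had folds of 21.7 and 19.97 in the controls against 22.9 and 19.6 in the knockdown libraries. At Lars2, the mitochondrial leucyl-tRNA synthetase, it lay 388 bp from the far end (chr9:123461692-123462287) with folds of 14.0, 13.7, 15.8 and 17.7. The authors' −log10 p at these were 165, 74.4, 231 and 75.7 for Wls and 184, 42.3, 442 and 206 for Lars2. The width over the 4 libraries ran from 341 to 378 bp at Wls and from 428 to 596 bp at Lars2, and the groups overlapped at both. Whether the sequence of these 2 regions is repeated in the genome, which can raise the fold and p of a peak, was not checked, so their values may not be comparable with those of other members.

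Next in the order by the worst of the 4 percentiles were Arrdc4 and Stt3a. Arrdc4 had folds of 8.29, 12.5, 11.2 and 13.1 in control 1, control 2, knockdown 1 and knockdown 2, and Stt3a had 7.65, 12.2, 10.8 and 12.5. They were followed by Hibch, an enzyme of valine breakdown, Numb, Mrps14, a protein of the mitochondrial ribosome, Sel1l, Cyb5a, the carrier cytochrome b5, and Prmt5, an arginine methyltransferase. All 10 were at or above percentile 2.49 of the members in every library. Their peaks were not all wider in knockdown. At Stt3a the width was 569 and 518 bp in the controls against 567 and 561 bp in the knockdown libraries, where the groups overlapped, and at Numb 471 and 456 bp against 598 and 539 bp, where they did not.

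The order of the members was moderately alike between libraries. Spearman's rho of fold over the 3395 members, which share libraries and background and so carry no p, lay between 0.60 and 0.750 for the 6 pairs of libraries. It was 0.609 between the controls, 0.704 between the knockdown libraries and 0.750 between control 2 and knockdown 2. Of the 340 members in the top 10% of a library, 85 were there in all 4, and 719 were there in at least 1. In the bottom 10%, 34 were shared by all 4.

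Peaks at the members were wider in the knockdown libraries than in the controls, and the 2 groups did not overlap. The median width was 407 bp in control 1, 445 bp in control 2, 560 bp in knockdown 1 and 537 bp in knockdown 2. The group means were 426 ± 26.9 bp (SD, n = 2) and 548.5 ± 16.3 bp (SD, n = 2), with a ratio of 1.29 and a difference of 122.5 bp. An exact permutation test over the 4 libraries, two-sided, gave p = 0.33, the smallest value that its 6 arrangements allow, so no difference between these groups could pass a conventional threshold. Summed over the members, peaks covered 1501 and 1665 kb in the control libraries against 2012 and 1968 kb with Zeb1 knockdown, a difference of 406.8 kb (exact permutation p = 0.33). The width limit of the rule caps each of these widths. Where the groups do not overlap, this p takes its smallest value whatever the distance between replicates, so it measures no spread. Whether replicate libraries stem from different animals is not in the labels, so differences between replicates may be technical.

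Widths are set here beside the length of the peak lists. Control 1, with the shortest list, had the narrowest peaks, and knockdown 2, with the longest, had narrower ones than knockdown 1. Between control 2 and knockdown 1, whose lists are nearly equal in length, 2597 members (76.5%) were wider in knockdown 1 and 789 (23.2%) were narrower, with a median difference of 81 bp. When each list was cut to its 7586 strongest peaks, 2581 regions met the rule and the difference between group means was 115 bp. It was 76.25 bp over the 2158 regions of which each library's peaks covered at least 50%. The part of sequencing depth in these differences was not tested.

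**Figure D2:**
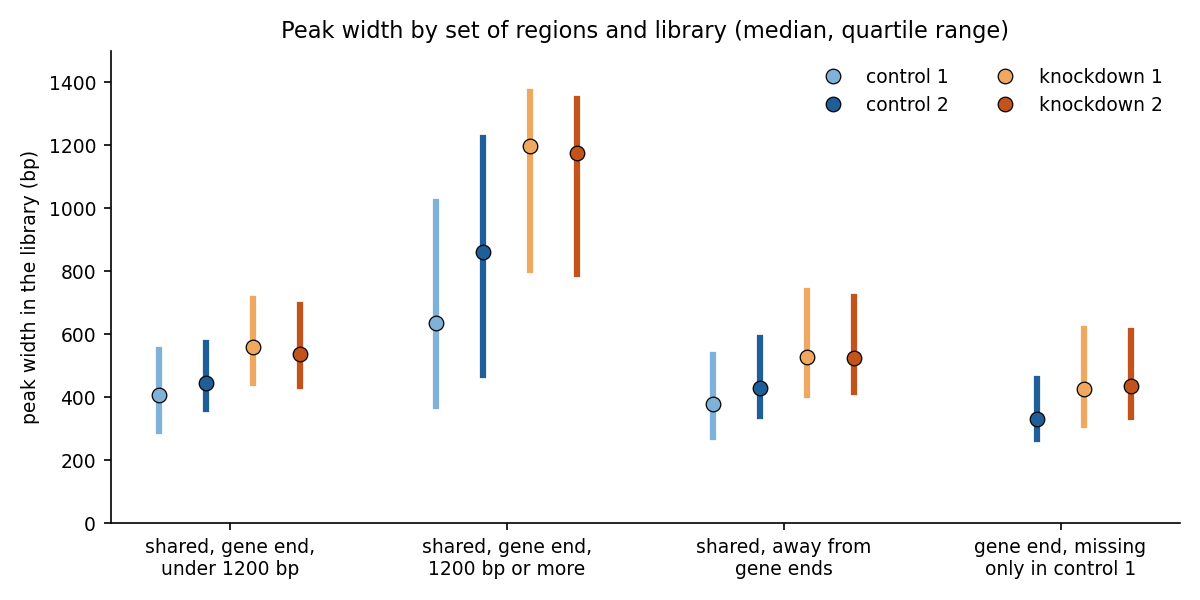
Width of the peak in each library (bp) for the members and for 3 other sets of regions, where points are medians over regions and bars run from the lower to the upper quartile. Knockdown medians lie above control medians in each set, at 560 and 537 against 407 and 445 bp for the members.

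Counted region by region, 1745 members (51.4%) were wider in both knockdown libraries than in both controls and 59 (1.74%) were narrower in both. Over all 5120 regions held by the 4 libraries the shares were 50% and 2.15%, so the members were near this background. Among the 426 wide shared gene-end regions 46.7% were wider and 1.41% narrower, and among the 1299 shared regions away from gene ends 47.3% and 3.46%. Wider peaks in knockdown were therefore found in every shared set. The median gain was 101.5 bp at the members, 101 bp away from gene ends and 348.5 bp at the wide shared gene-end regions, whose width has no upper limit.

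The difference in width was present on both sides of the start and was larger inside the gene. For the 2341 members that cover starts on 1 strand only, the upstream edge of the peak lay a median of 250 and 277 bp before the start in the controls against 306 and 298 bp in the knockdown libraries. The downstream edge lay 124 and 142 bp after it in the controls against 202 and 192 bp in the knockdown libraries. The difference between group means was 38.5 bp upstream and 64 bp downstream, and neither edge overlapped between groups (exact permutation p = 0.33 for each, the smallest possible). The centre of the peak lay 65.5 and 65 bp upstream of the start in the controls against 47.5 and 51 bp in the knockdown libraries, a difference of 16 bp towards the gene (exact permutation p = 0.33). The peak covered the start itself at 87.2% and 93.8% of these members in the controls and at 97.3% and 97.7% in the knockdown libraries.

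**Figure D3:**
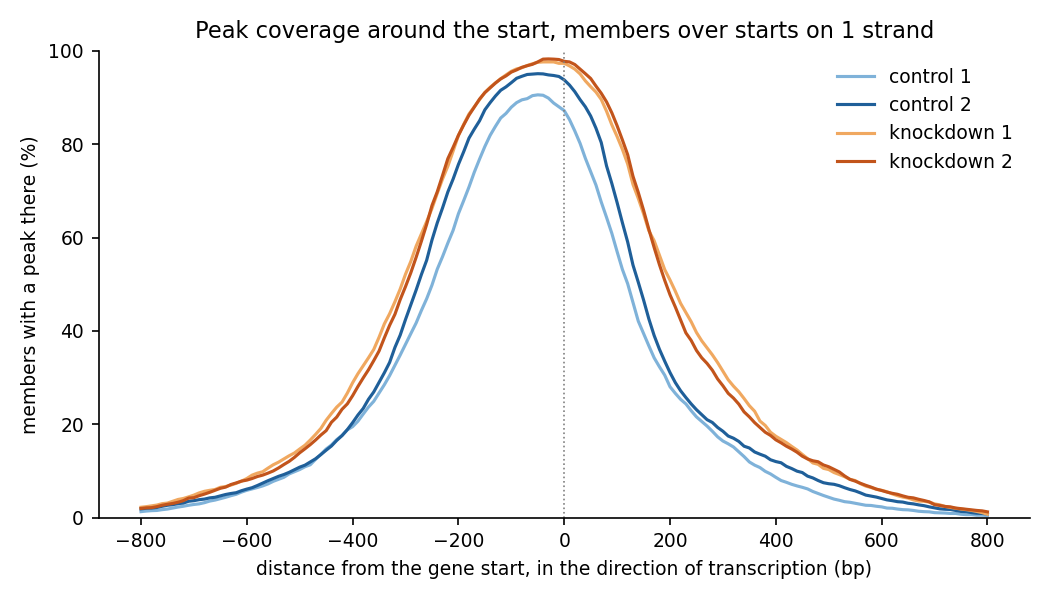
Percent of the 2341 members over starts on 1 strand that have a peak at each distance from the gene start (bp, negative values upstream, positive values inside the gene), 1 line per library. At 180 bp inside the gene the controls are at 32.3% and 36.1% and the knockdown libraries at 56.2% and 54.2%.

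The share of members that were wider in knockdown was 51.7% over the 2739 members that overlap a window, and it is given here by CG content and by motif. In the lowest to highest 25% of CpG ratios, 48.2%, 52.2%, 53.0% and 53.3% of members were wider in both knockdown libraries, with median gains of 91, 97.8, 105.5 and 112.5 bp. With the Zeb1 E2-box CACCTG in an overlapped window, 54.2% of 382 members were wider and the median gain was 109.5 bp, and without it 51.3% of 2357 and 99.5 bp. With CCAAT 53.2% were wider and without it 49.9%. Of the 13 motifs searched, the share with the motif was lowest for the ZNF143 core CTACAATTC (42.9% of only 35 members, against 51.8% without it) and the NRF1 core GCATGCGC (47.5% of 204, against 52.0%). It was highest for TGACG, which is part of the CREB site TGACGTCA, with 54.9% of 1219 against 49.1% of 1520 without it. None of these splits was tested.

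The largest gains in width were found at promoters of genes with unrelated roles. At the shared end of Frs3, an adaptor of growth factor receptors, Prickle4 and Tomm6, a subunit of the mitochondrial import pore, the peak was 336 and 338 bp wide in the controls against 1133 and 1096 bp in the knockdown libraries (chr17:47687953-47689085). At Wdr1 it was 388 and 341 bp against 1082 and 1125 bp (chr5:38560807-38561963), and at Tra2b 319 and 340 bp against 1009 and 1033 bp (chr16:22265172-22266232). The protein kinase gene Tesk1 (398 and 449 against 1100 and 1079 bp), the nuclear receptor gene Nr2c2 (501 and 475 against 1123 and 1178 bp) and the pair Baz2b and Marchf7 (255 and 211 against 875 and 1103 bp) followed. At Wdr1, Tra2b and Tesk1 the libraries of a group lay close together and the groups far apart. These 6 were picked for the size of the gap, which is a description and no test.

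Members that were narrower in knockdown had smaller gaps. At Gstm1, a glutathione transferase, the peak was 683 and 680 bp wide in the controls against 387 and 402 bp in the knockdown libraries (chr3:108017453-108018183). At Fam151b it was 651 and 722 bp against 394 and 333 bp. Others were Cox20, an assembly factor of cytochrome oxidase (1096 and 1104 against 939 and 902 bp), the pair Map4k2 and Men1 (815 and 700 against 543 and 280 bp) and Cdc25a, a phosphatase that drives the cell cycle (620 and 806 against 427 and 466 bp). The libraries of a group lay far apart for the knockdown pair at Map4k2 and Men1 and for the controls at Cdc25a.

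**Figure D4:**
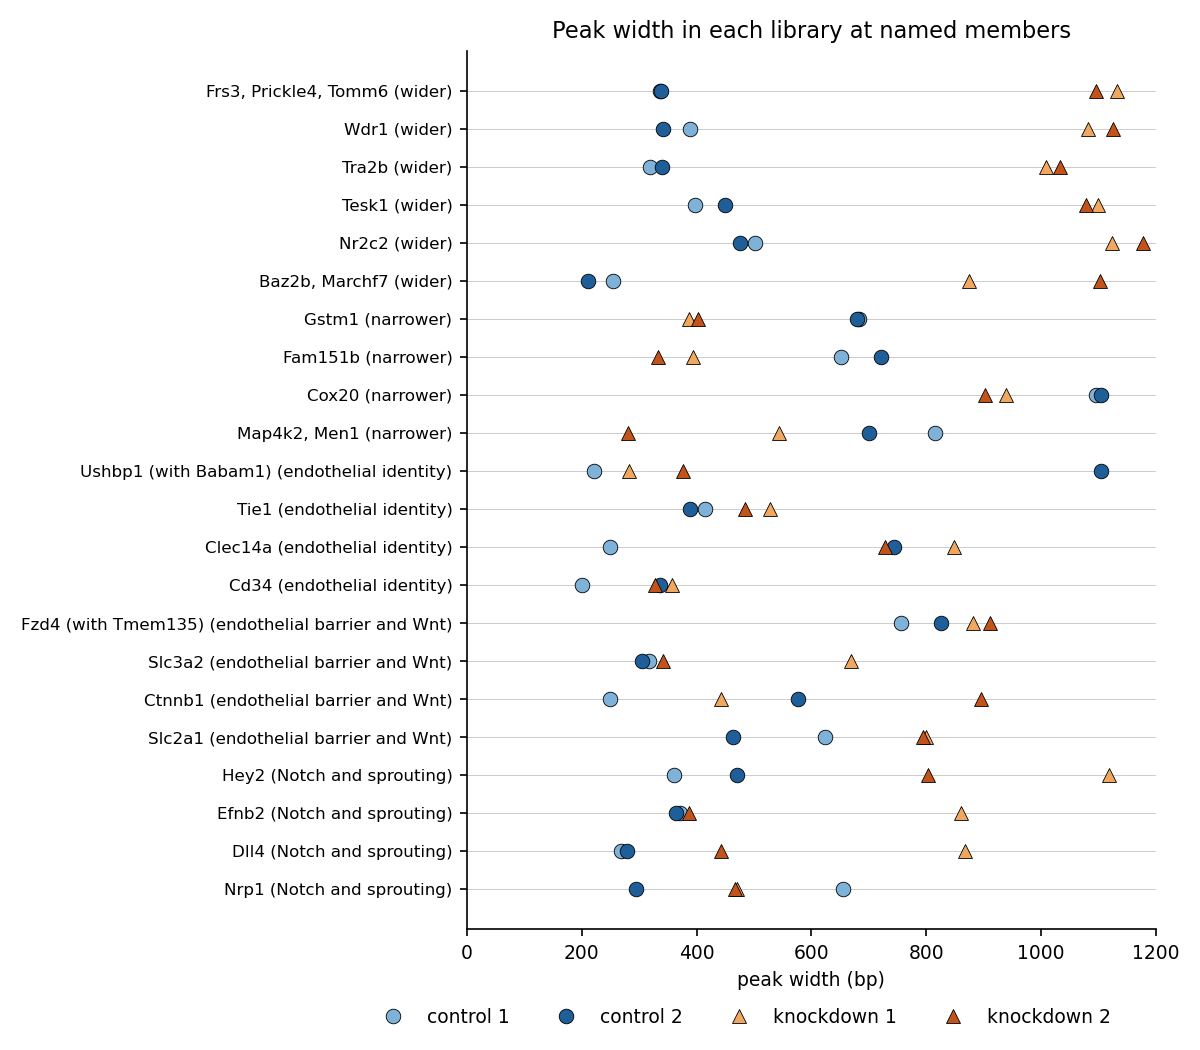
Peak width (bp) in each library at the 6 members with the largest gain of width in knockdown, at 4 of those with the largest loss and at the named endothelial members, with circles for controls and triangles for knockdown libraries. At Wdr1 the controls are at 388 and 341 bp and the knockdown libraries at 1082 and 1125 bp, and at Cd34 the groups overlap.

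Shifts in rank by fold between the groups were about as frequent at members as at all shared regions. A member counted as shifted when both knockdown percentiles differed from both control percentiles by at least 10 points in the same direction. In the knockdown libraries 217 members (6.39%) ranked higher and 206 (6.07%) lower, against 6.7% and 6.66% over all shared regions. Which of the 2 counts was larger turned round under several alternatives. The largest upward shift was at Cyb5r4, a cytochrome b5 reductase, with percentiles of 77.3 and 77.6 in the controls against 17.5 and 24.7 in the knockdown libraries. It was followed by Clu, a secreted chaperone of glia and other cells (72.5 and 80.1 against 23.1 and 14.2), Stoml1, Endod1, the calcium channel gene Itpr2 and Secisbp2l. Downward, the leading genes were Tmem259 (2.43 and 15.5 against 77.5 and 74.6), the kynurenine aminotransferase gene Kyat1 (46.3 and 46.6 against 97.5 and 95.8), the tau tubulin kinase gene Ttbk2, Sec63, a component of protein import into the endoplasmic reticulum, the ubiquitin ligase gene Ubr2 and Nudt13. At Tmem259 the peak was also wider in knockdown, 427 and 497 bp against 1072 and 1073 bp. The same held at Sec63 (248 and 277 bp against 724 and 796 bp) and at Ttbk2 (445 and 504 bp against 771 and 748 bp). At Kyat1, Ubr2 and Nudt13 the widths overlapped between groups. Fold and width are values of the same peak, and a link between them was not tested.

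Many genes needed by nearly every cell had a member at an end. Of 455 genes on 12 lists of general functions 184 (40.4%) had a member, compared with 18.9% of all protein-coding genes. The share was 60% for vesicle traffic (24 of 40), 50% for DNA repair and replication (20 of 40), 47.5% for the cytosolic ribosome (19 of 40), 47.4% for translation initiation and elongation (18 of 38) and 46.7% for the nuclear pore (14 of 30). It was 40% for RNA splicing (16 of 40), 38.7% for the proteasome (12 of 31), 37.5% for chromatin regulators (15 of 40), 36.1% for aminoacyl-tRNA synthetases (13 of 36), 32.5% for oxidative phosphorylation (13 of 40) and 30% for the transcription machinery (12 of 40). The mitochondrial ribosome, with 8 of 40 (20%), was near the share of all genes. A further 19 of its genes had a peak near an end in some library that did not meet the rule. Peaks of any kind near an end were at 38 of 40 genes for vesicle traffic and 33 of 40 for DNA repair and replication. They were at 27 of 40 for the mitochondrial ribosome and at 10496 of all 21627 genes. The excess on these lists was therefore not a trait of the members alone.

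The members of these lists that were best placed by fold ran from the top of the order to its lower part. At Rab8a, a GTPase that directs vesicles to the plasma membrane, the percentiles were 0.810 and 9.38 in the controls against 4.11 and 3.20 in the knockdown libraries. Hnrnpc, which binds nascent transcripts and shares its region with Rpgrip1, had 1.87, 8.20, 0.957 and 6.11. Mrps14 was the only one of the leading 4 of its list below percentile 2 in all libraries. Nup98, a nucleoporin, had 0.221, 3.64, 8.09 and 8.09. Other named members of these lists were placed lower. Psmd11, a proteasome subunit and the fourth of its list, was at 65.9 and 42.3 in the controls against 52.5 and 59.5 in the knockdown libraries. Gtf2b, a general initiation factor and the fourth of the transcription machinery, was at 80.0, 73.2, 82.0 and 66.4. Some widths separated the groups by a small gap and others did not. At Rab8a the controls had 610 and 585 bp and the knockdown libraries 659 and 616 bp, without overlap, and at Hnrnpc they had 561 and 528 bp against 581 and 575 bp, also without overlap. At Tcp1, a chaperonin subunit, the widths of 584 and 445 bp against 446 and 593 bp overlapped.

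Members wider in knockdown were found in each of the lists of general functions. Of the 4081 genes with a member, 2123 were at a member wider in both knockdown libraries and 69 at one narrower in both. Among listed genes with a member, it was wider at 14 of 24 for vesicle traffic, 12 of 19 for the cytosolic ribosome, 9 of 14 for the nuclear pore, 10 of 20 for DNA repair and replication, 5 of 16 for RNA splicing and 5 of 12 for the transcription machinery. A narrower member was at 1 gene of the DNA repair list, 1 of the chromatin regulators and none of the other lists.

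Stress-response genes were also well represented. Of 30 genes of heat shock and protein folding 19 (63.3%) had a member, the highest share of the 25 lists, and 3 more had a wide shared region. They include Stip1, a co-chaperone (percentiles 3.14, 14.0, 4.58 and 8.73), the chaperonin subunit gene Tcp1, Dnajb1 and Hspa5, the main chaperone of the endoplasmic reticulum. Of 24 immediate early genes, which respond within minutes to stimuli, 11 (45.8%) had a member and 5 a wide shared region. A gene-end peak of any kind was at 21 of these 24 genes and at all 30 of the heat shock list. The widths at Klf2, a factor that responds to flow in endothelium, were 584 and 567 bp in the controls against 738 and 536 bp in the knockdown libraries, and overlapped. Of the 11 Zeb1 partners and related E-box factors, Tcf3, Id2, Snai2, Tcf4 and Id3 had a member. Zeb1 itself had a peak near an end in every library except control 1.

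**Figure D5:**
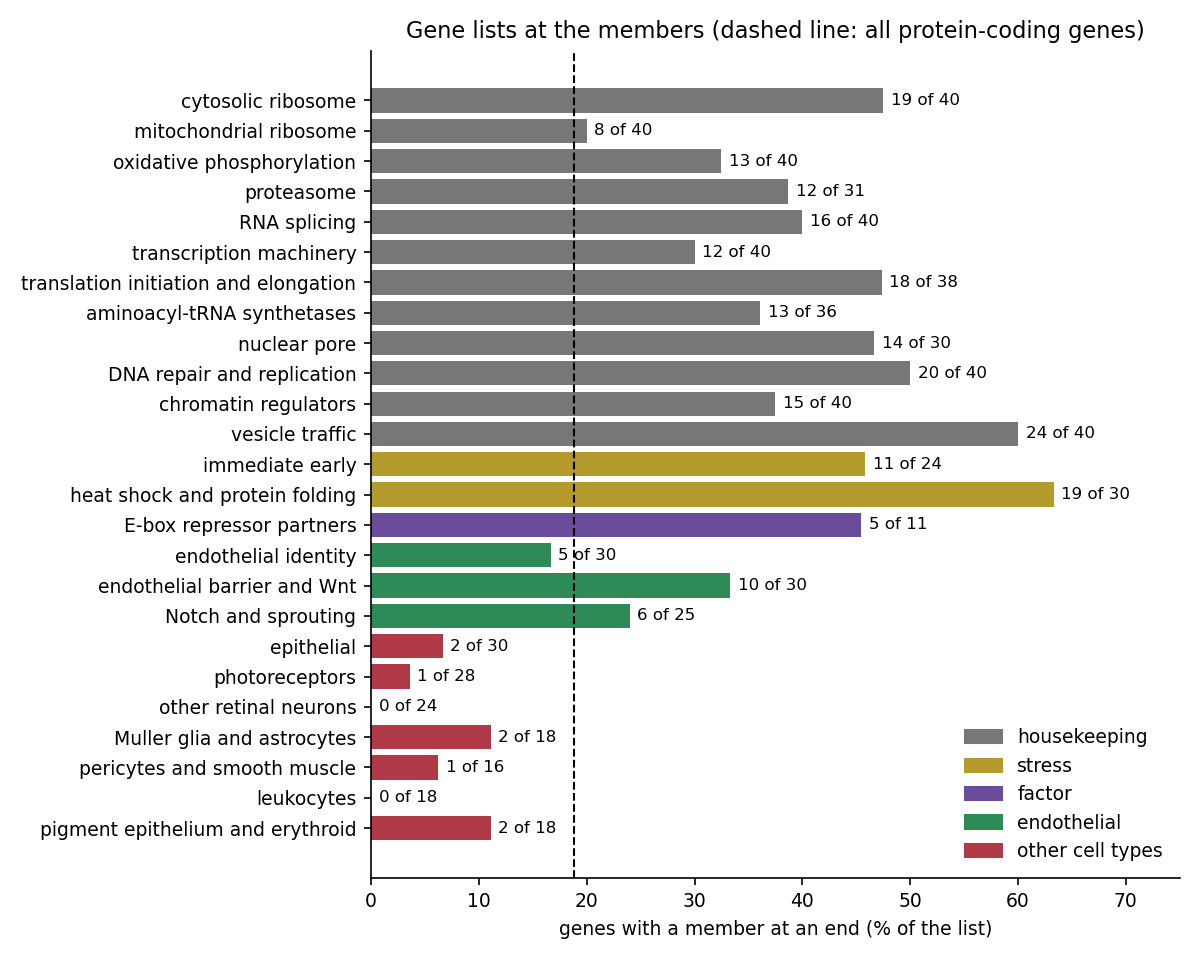
Percent of the genes of each list that have a member at an end, with counts beside the bars and the share of all protein-coding genes, 18.9%, as a dashed line. Lists of general functions and stress lie to the right of the line, endothelial lists on both sides of it, and other cell types to its left.

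Some endothelial genes had a member too, 21 of the 84 genes on 3 lists (25%). Of 30 barrier and Wnt genes 10 (33.3%) had a member, among them Fzd4, the receptor of the retinal Wnt ligand norrin, Ctnnb1, which encodes beta-catenin, the glucose transporter gene Slc2a1 and the tight junction gene Cldn5. Of 25 genes of Notch signalling and sprouting 6 (24%) had one, namely Hey2, Efnb2, Dll4, Nrp1, Jag1 and Nrarp. Of 30 endothelial identity genes only Ushbp1, Tie1, Clec14a, Cd34 and Elk3 did (16.7%). Their 5 overlapped windows had a median CpG ratio of 0.321 and none held CCAAT. The 5 windows at Notch and sprouting genes had a median of 0.779 and 4 of them held it. At barrier and Wnt genes the 6 windows had a median of 0.909 and 4 held it.

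By the worst of the 4 percentiles, most endothelial members lay low in the order by fold, and their widths varied. The median of this worst percentile was 94.8 for endothelial identity, 91.3 for barrier and Wnt, and 93.7 for Notch and sprouting. Over all genes with a member it was 72.2, and for the immediate early genes 90.5. Hey2, a target of Notch, was at percentiles 23.4 and 39.1 in the controls against 27.8 and 51.0 in the knockdown libraries, and Efnb2, an ephrin of arteries, at 32.7, 33.8, 52.8 and 39.3. Clec14a was at 75.8, 94.8, 91.1 and 92.9. Tie1 was at percentiles 83.8 and 86.8 in the controls against 11.3 and 86.7 in the knockdown libraries, so its high rank was found in knockdown 1 alone. Its peak was 414 and 388 bp wide in the controls against 528 and 484 bp in the knockdown libraries, which did not overlap. Clec14a had 249 and 744 bp against 849 and 729 bp, and Cd34 200 and 337 bp against 358 and 328 bp, and both overlapped between groups. At Slc2a1 the widths were 624 and 464 bp against 800 and 794 bp, at Hey2 361 and 470 bp against 1119 and 804 bp, and at the Notch ligand gene Dll4 269 and 278 bp against 868 and 442 bp. In these 3 the groups did not overlap, while the knockdown libraries differed widely from each other at Hey2 and Dll4. At Ushbp1, whose region also holds the start of Babam1, the width was 1105 bp in control 2 and 221 to 377 bp in the other 3 libraries.

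Few genes of epithelium and of other retinal cells had a member. Of 30 epithelial genes, which include known targets of Zeb1, 2 had a member (6.67%), the tight junction gene Tjp3 and the polarity gene Pard6b. The Tjp3 region also holds the start of Pip5k1c. At Pard6b the peak was 419 and 540 bp wide in the controls against 710 and 814 bp in the knockdown libraries, and its percentile went from 89.1 and 94.3 to 50.3 and 63.5, so neither overlapped. At Tjp3 the widths were 546 and 414 bp against 617 and 692 bp, and the percentiles, 37.9 and 52.9 against 75.4 and 55.5, were lower in rank in knockdown. Another 21 epithelial genes had a peak near an end that did not meet the rule. Counting all peaks near an end, control 1 and control 2 held 2 and 6 of the 30 genes, and knockdown 1 and knockdown 2 held 20 and 23. In the same order, the libraries held 4824, 8391, 8583 and 9821 of all 21627 protein-coding genes.

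Over the 6 lists of other retinal cell types 6 of 122 genes (4.92%) had a member. They were Rom1, a photoreceptor disc protein whose region also holds the start of Eml3, the glial genes Clu and Glul, Foxc1, a factor of pericytes that endothelium also expresses, Pmel, which shares its region with Rab5b, and Mitf. None of the 24 genes of other retinal neurons and none of the 18 leukocyte genes had one. At Glul, which encodes glutamine synthetase, the peak was 468 and 387 bp wide in the controls against 652 and 712 bp in the knockdown libraries, and at Rom1 739 and 752 bp against 860 and 885 bp.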

How the data were processed

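ATAC-seq peaks came from 2 control and 2 Zeb1 knockdown libraries of sorted retinal endothelial cells, grouped and numbered by their titles. Each library has its own deposited list of broad peaks, on mm10, without pooling. The submitters' processing notes name MACS2 2.1.1, bedtools 2.26.0, Bowtie2 2.3.2, SAMtools 1.3, Trimmomatic 0.36 and Picard 2.9.2. Their roles and settings, the shift of reads for the transposase and the filter on the lists are not given in the sources used here. Each deposited peak has the authors' fold enrichment, a ratio over the background of its own library. It also has the authors' −log10 p and −log10 q, and a deposited score, which is the −log10 q times 10, limited to 1000. Every listed −log10 q was at least 1.01. The files hold no read counts, so depth is unknown. A missing peak may mean only that reads were too few.

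Merging, on the autosomes and X, used Python 3.11.15, pandas 2.3.3 and NumPy 2.4.6. A library held a region if a peak overlapped it by at least 1 bp. The 35 Y regions held no region that met the rest of the rule. Gene ends, strands, starts and promoter windows were taken from RefSeq tables on GRCm38.p6. Only single values per library were compared, by an exact permutation test. Fold only ranked members within a library. The functions were tested on simulated data.

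The members, the 25 gene lists (757 entries) and the 13 motifs were chosen with earlier results of these data known. Genes named are the 10 members whose worst percentile by fold is best, the 6 with the largest gap in width and in rank in each direction, up to 4 per list by rank, those nearest the limits of the rule and the 5 closest pairs of starts. Elk3, Id3, Cldn5, Jag1, Nrarp and the markers Cdh5, Pecam1, Erg and Gnat1 were named after their values were seen, as were the splits of members by motif and by CpG ratio. Alternatives were stricter q, lists of equal length, 50% cover, merging within 1 kb, other width limits and windows, each library left out, the replicate number as a block, other gaps and ranks by −log10 p. Comparisons with control 2 alone were added after seeing the data. A few genes that the naming rule would give are left out.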

Additional observations from a re-analysis of the deposited data

How the results depend on the processing

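The median width was larger in knockdown under every alternative run. Its p was the smallest possible in each, which says nothing about stability. The difference in width fell from 122.5 to 76.25 bp, and that in covered length from 406.8 to 164.5 kb, where peaks had to cover 50% of a region, and covered length fell to 236.6 kb with a −log10 q of at least 3. Fewer members enter under both settings. Of the other values, 37 moved past 1.5 times the main count, the 95% interval of a share or the spread of rho. The order of the counts ranked higher and lower, 217 and 206, turned round with lists of equal length (189 and 191), with ranks by −log10 p (192 and 199), with a 3 kb window (225 and 230), and without control 1 (912 and 929), control 2 (698 and 718) or knockdown 2 (561 and 573). With a −log10 q of at least 3, there were 2056 members at 2502 genes, of which 1122 were wider and 28 narrower in knockdown, 141 ranked higher, and 81.1% lay over a RefSeq start. Where peaks had to cover 50% of a region, there were 2158 members at 2634 genes, of which 1067 were wider, 136 ranked higher and 135 lower. With the 7586 strongest peaks of each library 34 were narrower, and with a 3 kb window 77.2% lay over a start. A gap of at least 100 bp left 567 wider and 10 narrower members, and a gap of 20 percentile points left 80 higher and 70 lower. Ranking by −log10 p raised the median Spearman rho of the 6 pairs of libraries from 0.644 to 0.709.

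Leaving out 1 library gave 3490 to 5678 members at 4184 to 6654 genes, the most without control 1. It gave width differences of 103 to 141.5 bp, 2303 to 3411 wider, 236 to 762 narrower, 556 to 912 higher and 550 to 929 lower ranked members, and 77.9% to 79.3% over a start. These counts compare 3 libraries and so are passed more easily. With control 2 as the only control, 2202 of the 3395 members were wider and 386 narrower, and for knockdown 1 against control 2 alone 2597 and 789. With the replicate number as a replicate block, 2161 members were wider and 120 narrower, and the width difference was 122.5 bp (exact sign-flip permutation p = 0.5, the smallest possible with 2 pairs). Deviations of libraries with the same number correlated at 0.0567 for width and 0.160 for rank. These values rest on 2 pairs and only on regions held by all 4 libraries, so they do not decide whether the numbers pair the libraries. Photoreceptor genes with a gene-end peak, 2, 12, 3 and 10 of 28, were more frequent in both libraries numbered 2. Whole reads are not in the files, so neither depth nor a difference in signal could be assessed.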

Other observations

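Families of genes with a shared name stem and at least 20 genes, chosen after seeing the data, differed widely in their share with a member. The centrosome genes named Cep stood at 21 of 38 (55.3%), the AP adaptor and related genes named Ap at 13 of 29 (44.8%), the ubiquitin-conjugating and related enzymes named Ube at 18 of 42 (42.9%), the translation factors named Eif at 23 of 55 (41.8%), the dual-specificity phosphatases named Dusp at 10 of 24 (41.7%), and the small GTPases named Rab at 28 of 69 (40.6%). No member was found at any of the 1110 odorant receptor genes named Olfr, the 53 keratin genes named Krt, the 33 homeobox genes named Rhox or the 23 cadherin genes named Cdh. Of the 355 vomeronasal receptor genes named Vmn, 2 had one. Peaks of any kind near an end were at 9 of the 23 Cdh genes, unlike at Olfr (2 of 1110), Krt (2 of 53) and Rhox (0 of 33).

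Genes of the X chromosome had a member at 83 of 966 (8.59%). Among autosomes the share ran from 15.8% of 1782 genes on chromosome 2 to 23.3% of 679 on chromosome 12.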
